A study of Mus musculus with 144 samples.

Results

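Livers of calorie-restricted mice fed the same ration at opposite hours were compared: 24 libraries of mice that ate at the start of the light phase (CR-day) and 24 of mice that ate at the start of the dark phase (CR-night), all the liver libraries of those regimens, of 144 samples in the series. All mice were wild-type C57BL/6J males, single-housed with a running wheel, which entered at 8 weeks of age and were 6 months old at collection, after 10 weeks of the regimen per the file headers. Each restricted mouse received 10 pellets a day, 70% of its baseline intake, as 6, 2 and 2 pellets delivered every 2 h inside a 6 h window. Livers were taken every 4 h over 2 days in constant darkness, at 12 time points, each with a library of replicate letter A and 1 of letter B. Time is therefore circadian time (CT), counted from the start of the former light phase, and the windows open at CT0 in CR-day and CT12 in CR-night. The sources do not say whether food was still delivered on the collection days, so hours after the meal are hours after the usual opening of the window. The nearest comparison in the series uses the same windows with unlimited food (TR-day and TR-night, 24 libraries each), and the fifth liver group had food at all hours (AL).

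In mouse liver a transcription loop keeps circadian time: BMAL1 (Arntl) and CLOCK switch on the Per, Cry and Rev-erb (Nr1d1, Nr1d2) genes, whose proteins switch the loop off again. Light sets the clock of the brain, whereas meal time can set that of the liver, so that meals in the rest phase pull the liver away from the brain. Food also acts on the liver directly, through insulin, nutrient sensors, body temperature and hormones, which drive genes of fat, glucose and bile acid metabolism and chaperones.

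The 48 libraries held 6497876 to 20595551 reads assigned to genes, and 11926 genes were tested in 1 model of all 120 liver libraries. CR-day letter A stood apart before any test. Its median score on the first principal component, which held 43.4% of the variance and followed gene GC content (Spearman rho 0.83 between loading and GC over genes), was 71.1, against -10.3 in CR-day letter B and -10.6 and -37.7 in CR-night letters A and B. Mitochondrial transcripts took a median of 14% of its reads and 26.3% to 29.2% in the other 3 sets of 12 libraries. Levels were therefore also fitted in each letter alone. A level difference is described as a change only where it passed in all libraries and in letter B alone, with 1 sign in both letters. The values of each letter are not printed for every gene, and values from all libraries include CR-day letter A. Whether letters A and B stand for different animals or preparation batches is not stated, so p-values measure the spread between these libraries, which may be technical. The libraries read as liver. The 6 hepatocyte markers summed to a median of 82763 CPM (counts scaled to library size by TMM) in CR-day and 83573 in CR-night. Sums of Kupffer cell (medians 65.9 and 56.8 CPM), stellate cell (358 and 354) and the 4 tested cholangiocyte markers (35.4 and 41.0, but up to 326 in 1 CR-day library) were small. No marker on the 10 lists of cell types met the rule for a level change, but 2 passed in letter B as higher in CR-day with the opposite sign in letter A: Col3a1 of the stellate list (1.20 in B and -0.54 in A on the log2 scale, letter B adjusted p = 0.036, edgeR) and Spp1 of the cholangiocyte list (0.95 and -0.14, adjusted p = 0.039). Their part in the level results was not tested. In bulk liver, fewer cells of a type and less RNA per cell cannot be told apart.

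The clock of the liver followed the meal with a lag. Of 19 core clock genes, 18 changed rhythm between CR-day and CR-night, against 34% of all genes tested (4055), in the quasi-likelihood test of edgeR on the cosine and sine of a 24 h wave (Benjamini-Hochberg adjusted p, threshold 0.05). Rora was the gene that did not pass. In the 15 clock genes rhythmic in both regimens, the peak came a median of 9.89 h earlier in CR-day, with single genes from 7.22 h (Clock) to 10.6 h (Bhlhe41). The windows lie 12 h apart, so those peaks fell 1.42 to 4.78 h later after the meal in CR-day than in CR-night. In meal time, where CR-day is turned by 12 h so that both regimens count from the opening of the window, 14 of the 19 still differed, against 13.3% of all genes (1590).

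Arntl, the activator of the loop, shows this in the libraries. In CR-night it was lowest at CT8, with 0.525 ± 0.19 CPM (mean ± SD of the 4 libraries of an hour), and highest at CT20, with 48.7 ± 5.9 CPM. In CR-day the low hour was CT0, with 4.81 ± 3.5 CPM, and the high hour CT12, with 32.5 ± 5.8 CPM. High and low hours did not overlap in either regimen, and the troughs of CR-day were shallower. The fitted peak was at CT 12.0 ± 0.615 h (SE) in CR-day and CT 21.4 ± 0.302 h in CR-night, 12.0 and 9.40 h after the window opened (rhythm change adjusted p = 6.9e-15, meal-time adjusted p = 0.00055). Nr1d1, which encodes the repressor REV-ERB alpha, ran opposite to Arntl: in CR-night 63.9 to 87.8 CPM at CT8 and 2.06 to 3.18 CPM at CT16. In CR-day it ranged from 20.4 to 148 CPM over the 4 libraries at CT20 and from 7.55 to 16.2 CPM at CT12.

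Clock waves were smaller in CR-day in 18 of the 19 genes. The median amplitude, from the mean to the peak on the log2 scale, was 1.15 in CR-day and 1.91 in CR-night. Over all genes tested it was 0.19 and 0.27, so smaller waves in CR-day were not particular to the clock. The clock median was lower in each letter alone, with 1.16 against 1.86 in letter A and 0.99 against 1.97 in letter B. All genes gave 0.19 against 0.27 and 0.24 against 0.30 there. Npas2, a partner of BMAL1, had amplitudes of 1.57 ± 0.31 and 3.55 ± 0.31 (SE), Dbp, an output factor of the clock, 1.91 ± 0.33 and 3.49 ± 0.33, and Nr1d2 0.98 ± 0.16 and 2.15 ± 0.16. Cry1, a repressor, kept its amplitude within the errors, at 1.32 ± 0.16 in CR-day and 1.39 ± 0.16 in CR-night. The hour read from each library's clock genes differed from its label with an SD of 2.84 h in CR-day and 1.77 h in CR-night. It differed by over 3 h in 10 CR-day libraries and 1 CR-night library. Part of these deviations recurred at the same hour. All CR-night libraries of CT8 and CT32 read 1.5 to 1.75 h late, and CR-day libraries of CT20 and CT44 gave 4, 3, 3.25 and -3.75 h. The source of the deviations and their part in the smaller CR-day waves were not tested.

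No 24 h rhythm was called in CR-day for 4 of the 19 clock genes, Per1, Hlf, Cry2 and Rora. Of these, Per1 and Hlf were rhythmic in CR-night. Hlf, an output factor of the clock, had amplitudes of 0.32 ± 0.14 in CR-day and 0.79 ± 0.14 in CR-night (rhythmic adjusted p = 0.14 and 1.0e-05, edgeR). Per1, a repressor gene that hormones and feeding cues also induce, had a clear wave in CR-night, with means of 1.46 CPM at CT0 and 20.3 CPM at CT12 and a fitted peak at CT 12.7 ± 0.603 h (adjusted p = 2.2e-06, quasi-likelihood test). In CR-day its 24 h amplitude was 0.13 ± 0.30 (adjusted p = 0.98). Its means there were 21.1 ± 14 CPM at CT0, the opening of the meal, 12.5 ± 9.7 at CT8 and 27.6 ± 21 at CT12. The libraries at those hours overlapped widely, from 1.95 to 56.3 CPM. Per2, its close relative, kept a wave in both regimens, with peaks at CT 4.65 ± 0.553 h and CT 14.6 ± 0.317 h.

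BMAL1 and CLOCK bind the E-box, written CACGTG, which reads the same on both strands. Within the 250 bases before the start of each gene, 6.86% of 27025 mouse genes of the RefSeq promoter table (build GRCm38.p6) hold it. Of the 19 clock genes, 16 matched that table and 5 hold it: Per1, Cry1, Ciart, Tef and Bhlhe41. The D-box TTANGTAA, the motif of DBP, TEF, HLF and NFIL3, searched on both strands, is in 2.44% of the genes and, of the 16, in Per3. Stretches around the E-boxes follow, on the strand of the gene and with the E-box in capitals, since 4 of these 5 genes kept a wave that moved with the meal, while no 24 h wave of Per1 was detected in CR-day. They lie at chr11:69098743-69098808 (Per1, plus strand), chr10:85185089-85185154 (Cry1, minus), chr3:95882247-95882384 (Ciart, minus), chr15:81802506-81802571 (Tef, plus) and chr6:145865548-145865613 (Bhlhe41, minus).
Per1: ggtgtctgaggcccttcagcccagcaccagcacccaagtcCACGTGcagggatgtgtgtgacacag
Cry1: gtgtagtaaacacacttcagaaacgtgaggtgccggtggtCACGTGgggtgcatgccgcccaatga
Ciart: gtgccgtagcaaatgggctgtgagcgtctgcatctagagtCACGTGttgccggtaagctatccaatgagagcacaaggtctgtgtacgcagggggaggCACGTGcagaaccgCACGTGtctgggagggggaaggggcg
Tef: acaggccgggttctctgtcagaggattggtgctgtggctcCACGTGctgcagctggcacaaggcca
Bhlhe41: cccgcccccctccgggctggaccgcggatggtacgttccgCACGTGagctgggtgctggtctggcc
Ciart, which encodes a repressor of BMAL1 and CLOCK, holds 3 E-boxes, which begin 116, 58 and 44 bases before its start, and the others hold 1 each. Its peak moved by -10.6 ± 0.908 h and its amplitude was 1.46 ± 0.32 in CR-day and 3.21 ± 0.32 in CR-night. Cry1 moved by -9.42 ± 0.624 h, Tef, an output factor of the clock, by -10.2 ± 0.80 h and Bhlhe41, another repressor, by -10.6 ± 1.13 h. A match of letters is a description and not evidence of binding.

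Across the genome fewer 24 h rhythms were called in CR-day: 1950 genes (16.4%) were rhythmic in CR-day, 4211 (35.3%) in CR-night and 1207 in both, by the same quasi-likelihood test. In letter B alone 1500 and 2715 were called, and 2181 and 3174 with the GC correction there. CR-day libraries scattered more around the fitted waves (median residual SD 0.527 against 0.386 in CR-night). The part of that scatter in these counts was not tested. The median amplitude of all genes was 0.19 in CR-day and 0.27 in CR-night. Rhythm change was called in 3423 genes in letter A and 2869 in letter B, and 1781 genes were called in both letters and in all libraries. Of the 4055 genes called in all libraries, no difference in meal time was detected for 3194 (78.8%), while 861 differed on both time scales. Of the 1590 genes that differed in meal time, 1241 had the smaller amplitude in CR-day.

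Where peaks can be compared, most sat near the same hour after the meal. There were 916 genes rhythmic in both regimens with at least a 1.5-fold rise from trough to peak. Of these, 354 (38.6%) peaked within 2 h of the same time after the window opened and 606 (66.2%) within 4 h. The median gene peaked 1.86 h later after the meal in CR-day, 686 later and 230 earlier. Only 36 (3.93%) peaked within 2 h of the same circadian hour. Among the 10 genes with the smallest p of rhythm change were Nat8f5, Clmn, Per2, Lgalsl, Npas2, Nr1d2, Casp6, Cpt1a and Ppp1r3b. Cpt1a, the gate for fatty acid entry into mitochondria, peaked before the meal in both regimens, at CT 22.4 ± 0.554 h and CT 10.1 ± 0.380 h (meal-time adjusted p = 0.22, quasi-likelihood test).

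**Figure D1:**
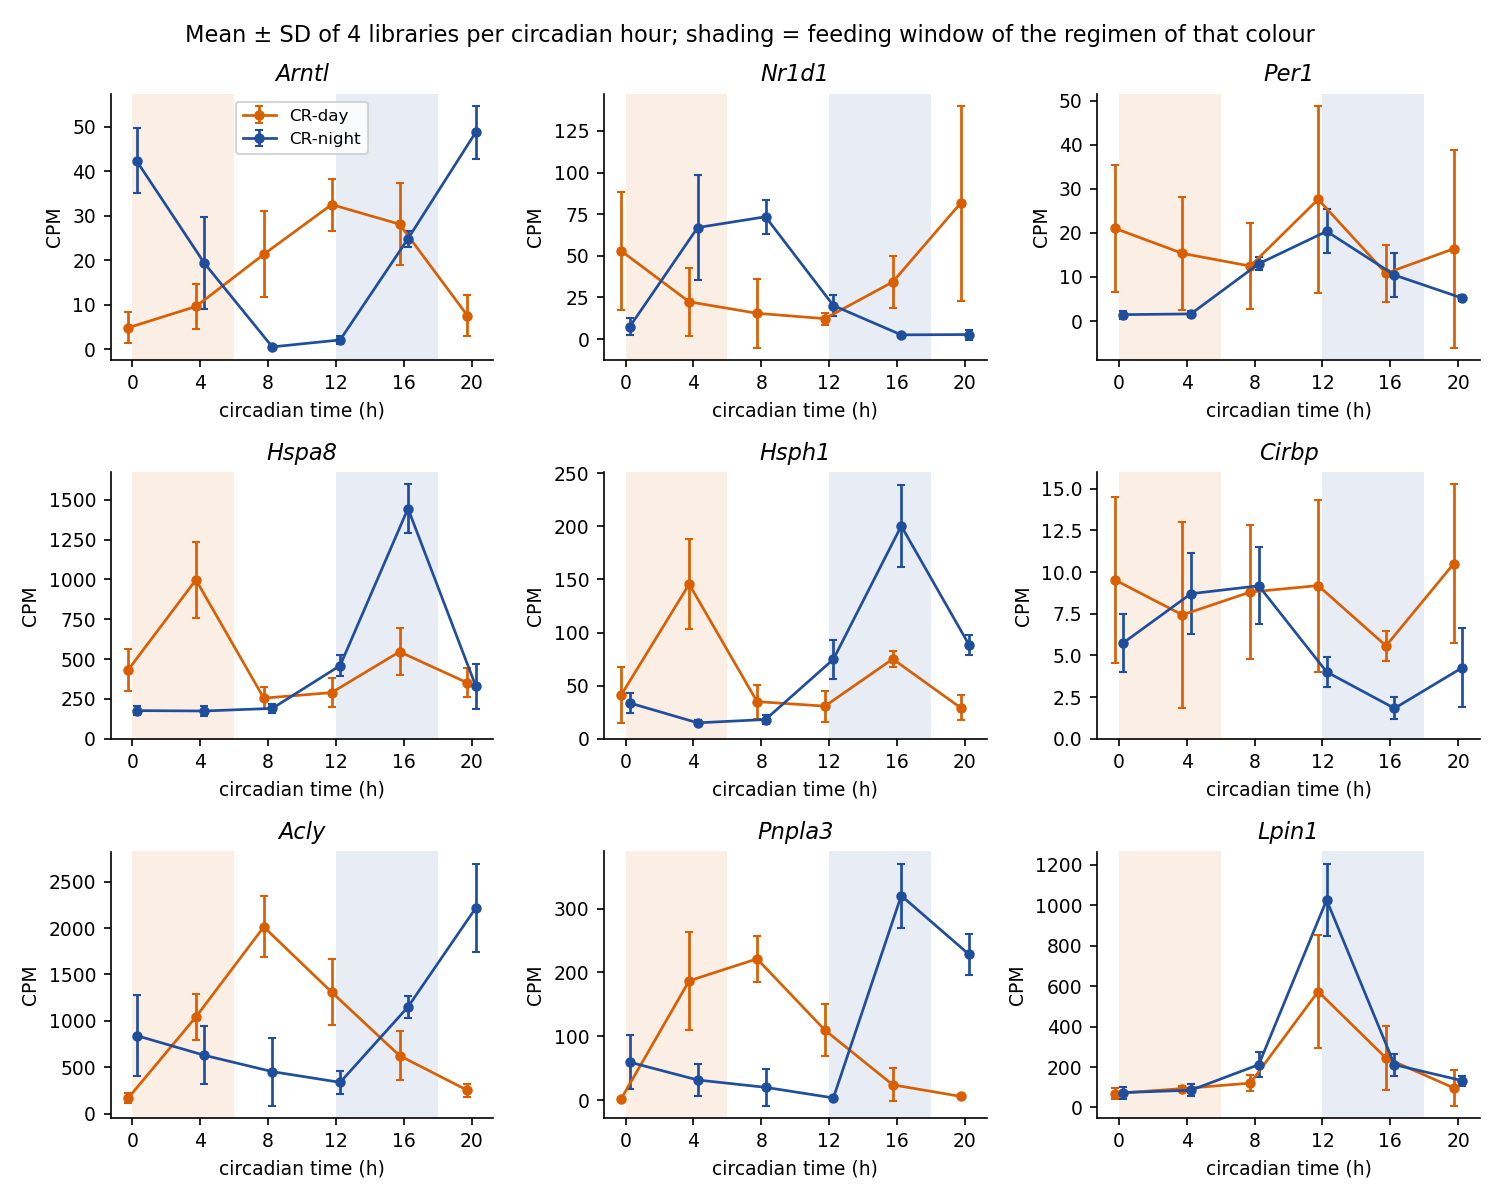
Mean CPM of 4 libraries per circadian hour, with SD as error bars, for 9 genes in CR-day (orange) and CR-night (blue); the shaded bands are the feeding windows. Arntl and Nr1d1 peak at different hours in the 2 regimens, Acly and Pnpla3 peak in or after the window of each, Hspa8 and Hsph1 have a high point at CT4 and another at CT16 in CR-day, and Lpin1 peaks at CT12 in both.

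**Figure D2:**
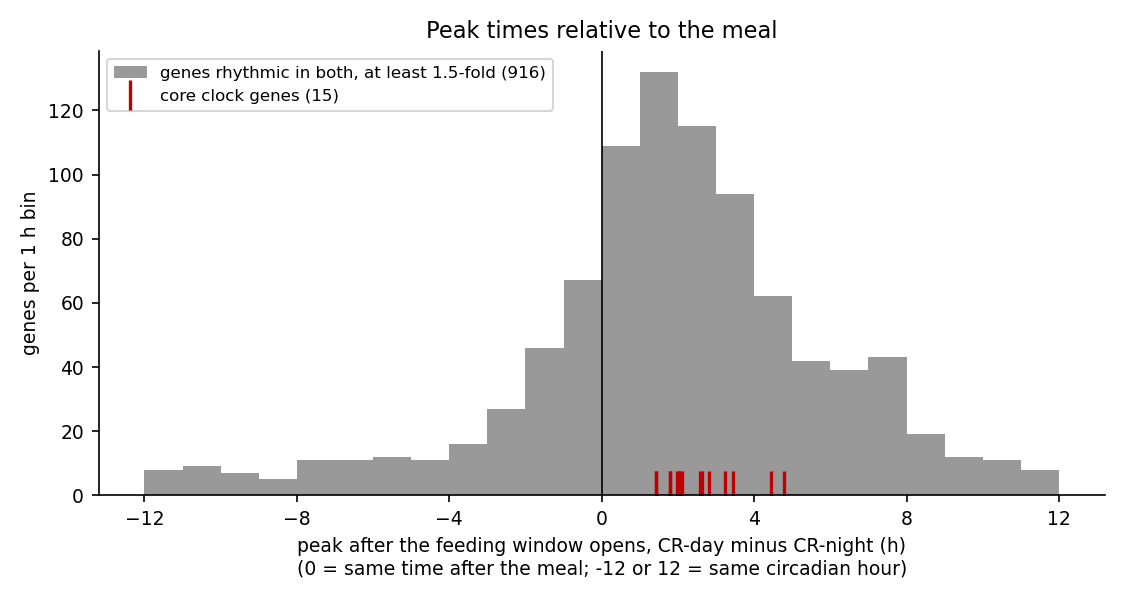
Histogram of the difference in peak time after the window opens, CR-day minus CR-night in hours, for the 916 genes rhythmic in both regimens with at least a 1.5-fold rise; red ticks are the 15 core clock genes. Of these, 66.2% lie within 4 h of 0, and the clock genes lie together between 1.42 and 4.78 h.

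Genes of fat synthesis also moved with the meal with a lag but, unlike the clock genes, did not have smaller waves in CR-day. Of 20 tested, 16 changed rhythm in circadian time and 1 (Thrsp) differed in meal time, against 34% and 13.3% of all genes. The 10 rhythmic in both regimens peaked a median of 2.00 h later after the meal in CR-day, with single genes from -0.21 to 5.23 h. That median was 2.11 h in the clock genes. The median amplitude was 1.00 in CR-day and 0.65 in CR-night. Acly, which makes cytosolic acetyl-CoA, rose from 105 to 237 CPM at CT0 to between 1527 and 2252 CPM at CT8 in CR-day. In CR-night it went from 187 to 493 CPM at CT12 to between 1803 and 2901 CPM at CT20. Low and high hours did not overlap, and the peaks came 9.39 ± 0.464 and 8.18 ± 0.662 h after the window opened (meal-time adjusted p = 0.31, quasi-likelihood test). Pnpla3, a lipid droplet protein, had the widest swing of those named: 2.58 ± 1.3 CPM at CT0 and 221 ± 36 at CT8 in CR-day, and 3.62 ± 0.88 CPM at CT12 and 320 ± 50 at CT16 in CR-night. Elovl5, an enzyme of fatty acid elongation, peaked 13.8 ± 0.634 and 12.4 ± 0.827 h after the opening. Thrsp, a regulator of fat synthesis, peaked at 8.60 ± 0.523 h after the opening in CR-day and 4.26 ± 0.681 h in CR-night (meal-time adjusted p = 0.0094). Fasn, fatty acid synthase, peaked 8.96 ± 0.717 and 7.37 ± 0.943 h after the opening (meal-time adjusted p = 0.80).

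Cholesterol genes also moved with the meal, with 16 of 24 changed in circadian time and 2 differing in meal time (all genes 34% and 13.3%). Unlike in fat synthesis, the 11 rhythmic in both regimens had no median lag. Their median shift after the meal was -0.27 h, CR-day minus CR-night, with single genes from -5.22 to 2.59 h. Median amplitudes of the list were 0.50 in CR-day and 0.43 in CR-night, with 14 genes larger and 10 smaller in CR-day. Lss, lanosterol synthase of the cholesterol pathway, held 21.4 to 37.4 CPM at CT0 and 72.4 to 145 CPM at CT8 in CR-day, and 27.0 to 53.7 CPM at CT12 and 99.0 to 114 CPM at CT20 in CR-night. Its low and high hours did not overlap, and it peaked 8.14 ± 0.641 and 9.45 ± 0.863 h after the opening (meal-time adjusted p = 0.39, quasi-likelihood test). Among genes of glucose phosphorylation and glycogen, 11 of 13 changed in circadian time and 6 in meal time, against 34% and 13.3% of all genes. Ppp1r3b, a glycogen-targeting subunit of protein phosphatase 1, held 462 to 892 CPM at CT4 and 49.7 to 88.4 CPM at CT20 in CR-day, and 591 to 688 CPM at CT16 and 20.2 to 62.5 CPM at CT8 in CR-night. Its peaks came 8.50 ± 0.428 and 6.67 ± 0.346 h after the opening (meal-time adjusted p = 0.047). Gys2, liver glycogen synthase, differed on both scales, with amplitudes of 0.61 ± 0.11 and 1.20 ± 0.11 (meal-time adjusted p = 0.00089).

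Of 14 genes that make glucose or break down amino acids, 7 changed in circadian time and 6 in meal time (all genes 34% and 13.3%). Rhythmic were 4 in CR-day and 8 in CR-night, against 16.4% and 35.3% of all genes, with 3 in both. Pck1, the rate-limiting enzyme of gluconeogenesis, held 1526 to 1889 CPM at CT0 in CR-day and 83.3 to 329 CPM at CT4. In CR-night it held 2475 to 3251 CPM at CT12 and 134 to 195 CPM at CT20. Both groups of libraries parted without overlap around the meal. The fitted peaks lay 18 ± 0.805 and 21.2 ± 0.597 h after the opening, earlier after the meal in CR-day, unlike those of the clock genes (meal-time adjusted p = 0.032). The hours of high values above, CT0 and CT12, are the opening of each window, and samples lie 4 h apart. The earlier peak of Pck1 in CR-day therefore rests on the fitted 24 h waves, and a difference in wave shape was not tested. Tdo2, which breaks down tryptophan, peaked at 19.6 ± 0.916 and 21.8 ± 0.627 h.

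Of 14 bile acid genes, 8 changed in circadian time and 6 in meal time, against 34% and 13.3% of all genes. Cyp7a1, the rate-limiting enzyme of bile acid synthesis, peaked 2.85 ± 0.741 h after the opening in CR-day and 1.70 ± 0.606 h in CR-night (meal-time adjusted p = 0.68, quasi-likelihood test). Its 4 CR-day libraries at CT0 ran from 65.7 to 928 CPM, so that hour is poorly fixed. Abcc2, an export pump of the bile canaliculus, had an amplitude of 0.16 ± 0.07 in CR-day and 0.63 ± 0.07 in CR-night (meal-time adjusted p = 3.1e-05). Abcb11, the bile salt export pump, peaked 15.2 ± 0.647 and 12.3 ± 0.473 h after the opening (meal-time adjusted p = 0.0072).

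A small set peaked near the same circadian hour in both regimens. There were 41 genes rhythmic in both regimens, with peaks within 2 h of each other in circadian time, that differed in meal time; the 8 with the largest CR-night amplitudes were Lpin1, Scara5, Glipr2, 1600002H07Rik, Eln, AA986860, Ctgf and Zbtb16. The rule does not bar a called change in circadian time: 3 of the 41, Glipr2 (adjusted p = 0.013), 1600002H07Rik (0.0079) and Hoga1 (0.037), passed that test of edgeR too. Lpin1, a phosphatidate phosphatase and coactivator of fat oxidation, was at 285 to 917 CPM at CT12 in CR-day and 775 to 1173 CPM in CR-night. At CT0 it held 35.7 to 96.0 and 40.2 to 112 CPM. The regimens overlapped at each hour, and the fitted peaks were at CT 12.4 ± 0.669 h and CT 12.5 ± 0.549 h, 0.481 h after the opening in CR-night (rhythm change adjusted p = 0.63, meal-time adjusted p = 8.9e-13). Zbtb16, a transcription factor gene that glucocorticoids induce, held 42.3 to 88.1 CPM at CT12 in CR-day and 84.7 to 124 CPM in CR-night, with peaks at CT 13.4 ± 0.717 h and CT 13.9 ± 1.31 h. The rule set their likeness in circadian time, so that likeness is a description.

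Other genes that glucocorticoids induce split between the time scales: 10 of 13 changed in circadian time and 7 in meal time (all genes 34% and 13.3%). Tsc22d3, the leucine zipper gene GILZ, peaked at CT 10.1 ± 0.573 h in CR-day and CT 15.7 ± 0.471 h in CR-night, a move of -5.56 ± 0.742 h, between a fixed hour and the meal (rhythm adjusted p = 2.4e-06, meal-time adjusted p = 5.0e-10). Fkbp5, a cochaperone of the glucocorticoid receptor, held 65.9 to 173 CPM at CT12 in CR-night against 7.94 to 17 CPM at CT4. In CR-day its libraries at CT12 held 30.8 to 59.2 CPM, and the 24 h amplitude was 0.36 ± 0.19 against 1.61 ± 0.19 in CR-night. Klf9, a transcription factor, moved with the meal, by 11 ± 1.09 h.

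Of the 1590 genes that differed in meal time, 349 had the larger amplitude in CR-day. The 8 with the largest such difference, chosen for it by the rule, were Il1rn, Elovl3, Fam65b, Pdilt, Egr1, Osbpl3, Acot2 and Spsb4. Elovl3, an elongase of very long chains, had amplitudes of 2.71 ± 0.38 and 1.61 ± 0.38, and Il1rn, the interleukin-1 receptor antagonist, 1.65 ± 0.23 and 0.47 ± 0.23. On the other side the 8 were Npas2, E030018B13Rik, Lmod2, Per1, Ciart, Hist2h3c1, Hspb1 and Hspa1b. Cirbp, the cold-inducible RNA-binding protein, which responds to a fall of body temperature, also had a wave in CR-night alone by the test (1.02 ± 0.18, adjusted p = 2.6e-05) and an amplitude of 0.09 ± 0.18 in CR-day (adjusted p = 0.89); its rhythm changed (adjusted p = 0.0064, quasi-likelihood test).

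Chaperone genes had a second daily maximum in CR-day. Heat shock chaperones fold proteins of the cytosol and follow body temperature and feeding. Of 17 tested, 14 had a 24 h rhythm in CR-night and 5 in CR-day, against 35.3% and 16.4% of all genes. Their median amplitudes were 0.88 in CR-night and 0.41 in CR-day. That loss on the 24 h scale left out a shape. Hspa8, the constitutive HSP70, held means of 432, 998, 256, 290, 546 and 352 CPM at CT0, 4, 8, 12, 16 and 20 in CR-day. In CR-night these were 177, 175, 191, 460, 1445 and 330 CPM. The CR-day libraries at CT4 (700 to 1270 CPM) lay above all those at CT0 and CT8, and those at CT16 (381 to 727 CPM) above all those at CT12, with overlap at CT20 only.

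Hsph1, an HSP110 chaperone, gave 93.5 to 187 CPM at CT4 and 65.4 to 83.3 CPM at CT16 in CR-day. It ranged from 10.7 to 75.8 CPM at CT0, 8, 12 and 20 together. In CR-night it had 1 high point, 165 to 252 CPM at CT16. Both regimens thus had a high point 4 h after the window opened, and CR-day a further one at CT16, 16 h after it opened.

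Over the list, 12 of 17 heat shock genes had means with a maximum at CT4 and another at CT16, each above the hours on either side, in CR-day and 1 of 17 in CR-night. Over all genes tested these shares were 10.1% (1207) and 6.89% (822). In CR-day, letter A alone gave 14 and letter B alone 9 of 17, 8 in both. Chaperones of the endoplasmic reticulum (ER) and genes of the unfolded protein response gave 16 of 20 in CR-day and 0 of 20 in CR-night (14 and 15 in the letters alone, 13 in both). TR-day gave 11 of 17 and 15 of 20, so the shape also stood with unlimited food at the same hours, and AL gave 0 and 3. None of the other 22 gene lists had more than 28.6% of its members with both maxima in CR-day. This count was chosen after the time courses were seen.

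A 12 h wave added to the 24 h wave passed the quasi-likelihood test in CR-day in 8 of 17 heat shock genes and 7 of 20 ER genes, against 0.721% of all genes (86), and in CR-night in 1 and 0, against 0.654% (78). Stip1, a cochaperone between HSP70 and HSP90, had a 12 h amplitude of 0.81 on the log2 scale in CR-day and 0.26 in CR-night, and its difference passed (adjusted p = 0.0011); it alone of the genes on both lists had a called difference, as had 3 genes of all tested. Hspa5, the main ER chaperone BiP, averaged 1108 ± 555 CPM at CT4 and 647 ± 299 at CT16 in CR-day, against 322 ± 100 at CT0 and 433 ± 159 at CT12. Its libraries overlapped around CT16 (249 to 913 CPM). Creld2, an ER stress protein, reached 13.0 to 106 CPM at CT4, above the 5.97 to 7.66 CPM of CT0.

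**Figure D3:**
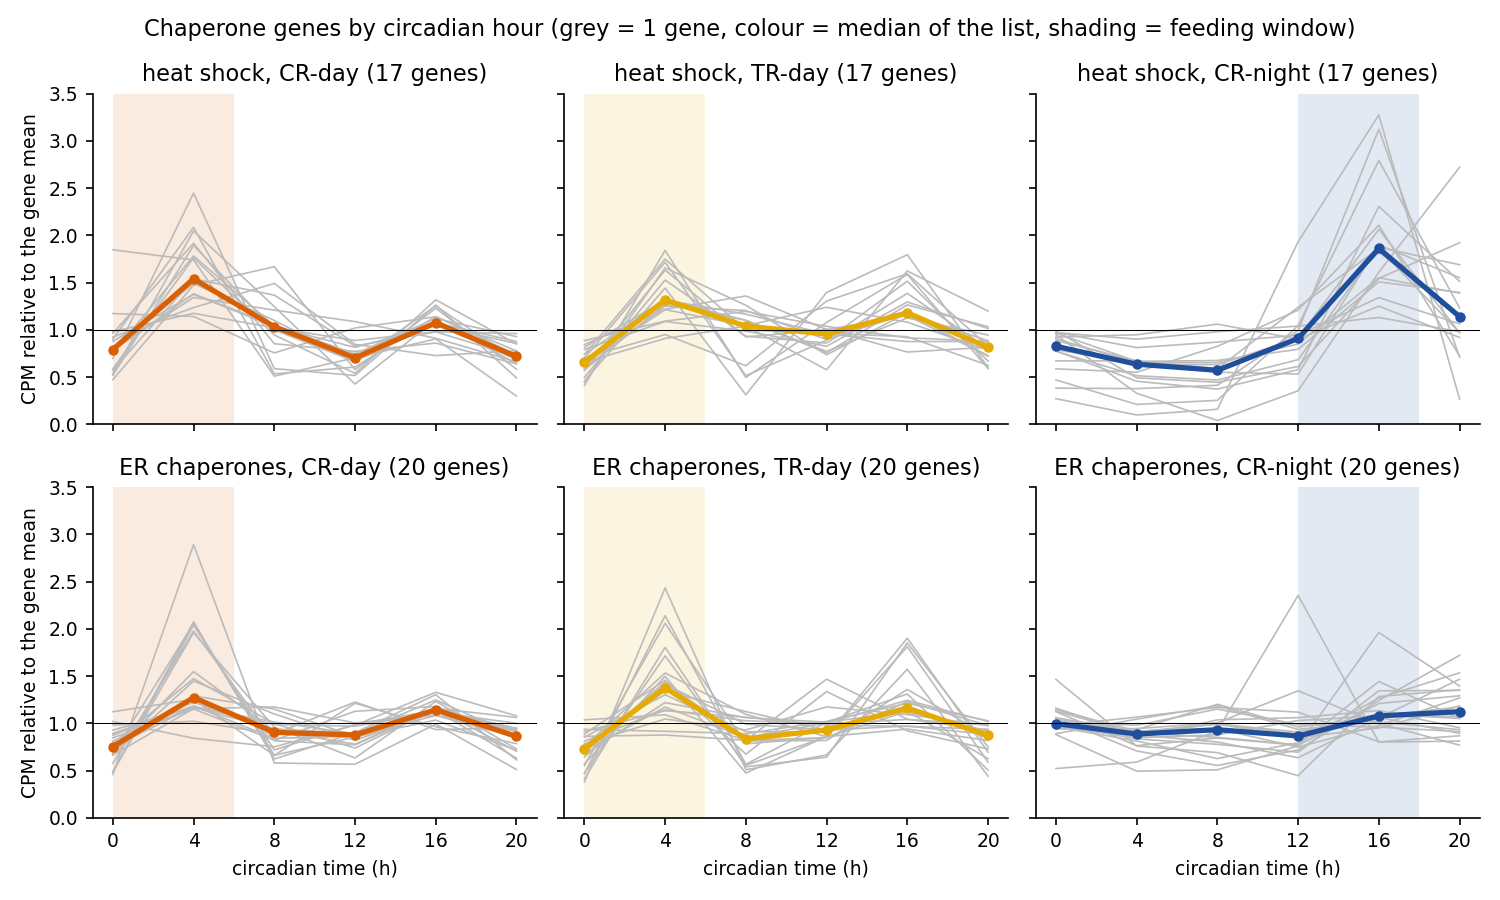
Mean CPM at each circadian hour divided by the mean of the gene over the 6 hours, for heat shock (17) and ER chaperone (20) genes in CR-day, TR-day and CR-night; grey lines are single genes, the coloured line is the median of the list and the band the feeding window. The medians have a high point at CT4 and a lower one at CT16 in both day-fed regimens, and the heat shock median in CR-night has 1 at CT16.

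Levels over the day depended on the letter. In all libraries 8097 genes (67.9%) differed in mean level between CR-day and CR-night, 4504 higher and 3593 lower in CR-day. Letter A alone gave 9196 and letter B alone 276 (2.31%), 175 higher and 101 lower. The log2 difference followed gene GC content, with a Spearman rho over genes of 0.81 in letter A and 0.51 in letter B. Genes that met the rule numbered 146 higher (1.22%) and 94 lower (0.788%) in CR-day, and the accounts below rest on these 240. Of them, 180 also passed after correction for GC content. When counts were summed to 1 value per regimen and letter, no gene passed in edgeR's quasi-likelihood test (smallest adjusted p = 0.0902); unadjusted p was under 0.05 for 161 of the 240, and for 1079 of all genes.

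**Figure D4:**
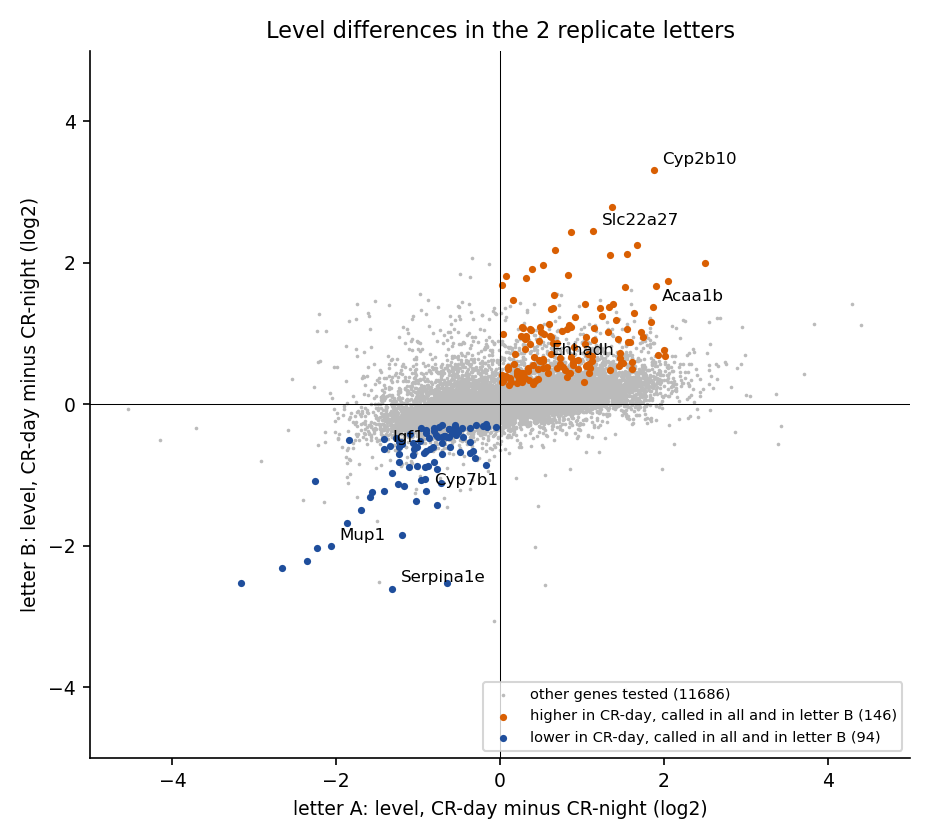
Log2 level difference, CR-day minus CR-night, in letter A (horizontal) and letter B (vertical) for the 11926 genes tested; the 146 and 94 genes that met the rule are coloured. The cloud is wider along letter A than along letter B, and the coloured genes lie in the upper right and lower left.

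Male-biased liver genes were among the largest falls. These genes, which pulses of growth hormone keep high in males, include the major urinary proteins, carriers of pheromones. Of 21 tested, 6 met the rule as lower in CR-day, against 0.788% of all genes, and 0 as higher. In both letters 16 were lower, a description, since the share of all genes lower in both is not given here. The median difference was -0.64 in letter A, -0.88 in letter B and -0.26 with the GC correction, where medians over all genes were -0.02, 0.03 and 0.01. Mup21 (chr4:62147932-62150863, minus strand) held 9.21 to 463 CPM in CR-day, with a median of 145, and 26.5 to 1027 CPM in CR-night, with a median of 506. The regimens overlapped, and the level difference was -1.51 ± 0.28 on the log2 scale in all libraries, -1.69 in letter A and -1.50 ± 0.36 in letter B (adjusted p = 3.6e-06 and, in letter B, 0.018). Serpina1e (chr12:103946931-103958975, minus strand), an alpha-1-antitrypsin gene, had medians of 71.3 and 60.5 CPM in CR-day letters A and B and 364 and 428 CPM in CR-night, with ranges that overlapped. It was lower by -1.32 in letter A and -2.61 ± 0.42 in letter B (adjusted p = 0.00013 in letter B). Cyp7b1, which hydroxylates oxysterols and steroids, had medians of 53.6 and 124 CPM and a difference of -1.10 ± 0.20 (adjusted p = 1.9e-06, letter B 0.0019).

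Mup1, Mup12 and Mup7 also met the rule, but Mup1 reached 28.8 CPM at most, and reads of these near-identical genes may be split or lost, so their single values are uncertain, as are those of Serpina1e and its copies. Mup7 did not pass in letter A (adjusted p = 0.35) or with the GC correction (0.26, edgeR). The other falls named by the rule were Serpina12, the adipokine vaspin, Raet1d, a ligand of an immune receptor, Chic1, Serpine2, a protease inhibitor, Adgrf1, an adhesion receptor, and Hsbp1l1. They ran from -1.51 ± 0.26 (Serpina12) to -1.13 ± 0.22 (Hsbp1l1). Igf1 (chr10:87858265-87937042, plus strand), the growth factor that growth hormone induces in liver, was the 1 of 14 genes of that axis that met the rule. It did so as lower, against 0.788% of all genes. The axis list was mixed, with 6 genes lower and 6 higher in both letters. Its median difference was 0.19 in letter A, 0.01 in letter B and -0.15 with the GC correction. Igf1 held 310 to 1568 CPM in CR-day, with a median of 515, and 498 to 1980 CPM in CR-night, with a median of 1232. The ranges overlapped, and the difference was -0.94 ± 0.13 in all libraries and -0.63 ± 0.16 in letter B (adjusted p = 6.5e-09 and 0.030, edgeR).

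Some genes that burn fatty acids stood higher in CR-day. Of 22 genes of mitochondrial oxidation and ketone body synthesis, 6 met the rule as higher and 0 as lower, and 16 were higher in both letters. Of 16 genes of peroxisomal oxidation and targets of PPAR alpha, the fasting receptor for fatty acids, 5 met it as higher and 0 as lower, and 12 were higher in both letters. Of all genes tested, 1.22% met the rule as higher. Median differences in letter A, letter B and with the GC correction were 0.36, 0.28 and 0.30 in the mitochondrial list. They were 0.45, 0.56 and 0.41 in the peroxisomal list and -0.02, 0.03 and 0.01 over all genes. The share of all genes higher in both letters is not given here, so the counts of 16 and 12 are descriptions. Acaa1b (chr9:119148023-119157093, minus strand), a peroxisomal thiolase, held 108 to 661 CPM in CR-day, with a median of 361, and 61.4 to 211 CPM in CR-night, with a median of 108. In letter A every CR-day library (242 to 661 CPM) lay above every CR-night library (61.4 to 211 CPM), and in letter B the ranges overlapped slightly. The difference was 1.68 ± 0.14 in all libraries, 1.38 ± 0.17 in letter B and 0.99 with the GC correction (adjusted p = 2.2e-18, 6.3e-07 and 9.6e-13, edgeR). Ehhadh, the bifunctional enzyme of the same pathway, held 210 to 600 CPM in CR-day and 146 to 419 CPM in CR-night, with medians of 304 and 216. Its difference was nearly equal in the letters, 0.53 in A and 0.61 ± 0.12 in B (letter B adjusted p = 0.0016).

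Acads and Acadvl, acyl-CoA dehydrogenases of the mitochondrial list, passed in all libraries but not in letter B, with differences there of 0.52 ± 0.21 and 0.45 ± 0.16 (adjusted p = 0.13 and 0.092, edgeR). Angptl4, an inhibitor of lipoprotein lipase, had 0.95 ± 0.34 in letter B (adjusted p = 0.096). Fgf21, the fasting hormone of the liver, met the rule at low counts, with medians of 0.85 CPM in CR-day letter B and 0.34 CPM in CR-night letter B.

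The largest rise was that of Cyp2b10 (chr7:25897620-25926624, plus strand), a drug-metabolising P450 gene and target of the receptor CAR. It held 1.02 to 45.3 CPM in CR-day, with a median of 5.42, and 0 to 8.06 CPM in CR-night, with a median of 0.71. The ranges overlapped at these low levels, and the difference was 2.16 ± 0.45 in all libraries and 3.31 ± 0.69 in letter B (adjusted p = 2.1e-05 and 0.0040, edgeR). Reads shared with other Cyp2b genes make it uncertain. The other rises named by the rule were Cyp2a22, Slc22a27, Zfp385a, Mfsd2a, Rad51b, Prodh2, Tsku, Lgals1, Acnat2 and Gsn. Slc22a27, a female-biased organic anion transporter, differed by 1.13 in letter A and 2.45 ± 0.46 in letter B. Of 11 female-biased genes tested, 2 met the rule as higher and 0 as lower, against 1.22% and 0.788% of all genes. That list was mixed, with 4 genes higher and 4 lower in both letters. In all libraries 2 passed in each direction, where 67.9% of all genes passed in either. The median difference was -0.05 in letter A, 0.44 in letter B and -0.12 with the GC correction. Mfsd2a, a lysolipid transporter induced by fasting, had medians of 59.5 and 19.6 CPM and a difference of 1.58 ± 0.18. Mean levels of Pck1 did not pass (0.40 ± 0.27, adjusted p = 0.18), and those of Cyp7a1 and Fasn passed in all libraries but not in letter B (adjusted p = 0.67 and 0.97, edgeR).

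**Figure D5:**
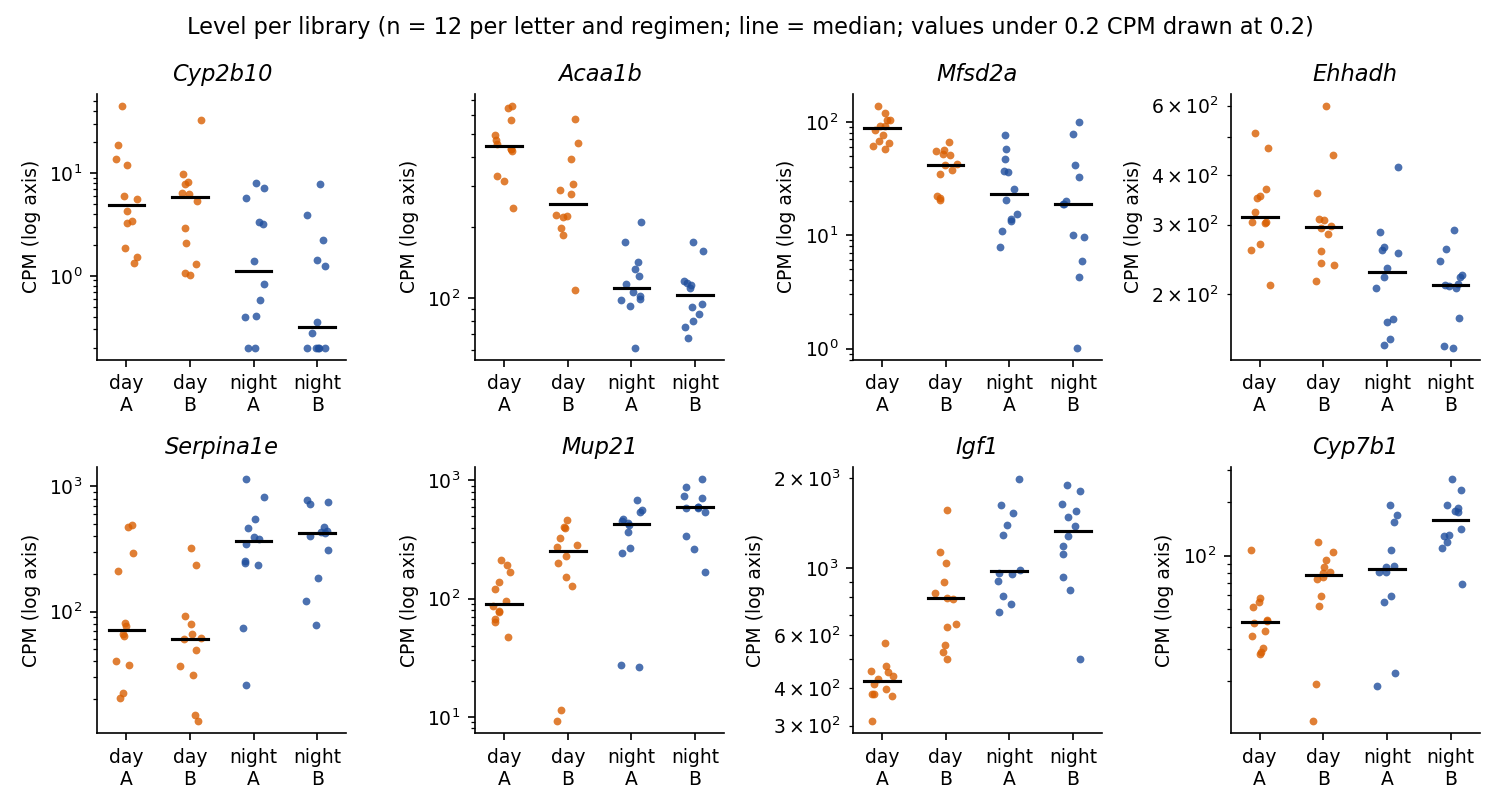
CPM in each library on a log axis for 8 genes, 12 libraries per letter and regimen, with the median as a line; values under 0.2 CPM are drawn at 0.2. Cyp2b10, Acaa1b, Mfsd2a and Ehhadh are higher in CR-day and Serpina1e, Mup21, Igf1 and Cyp7b1 lower in both letters, with overlap of libraries in most panels.

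With unlimited food in the same windows, part of this was seen and part was not settled. Between TR-day and TR-night 408 genes (3.42%) differed in level, and 74 of the 240 genes that met the rule under restriction (30.8%) differed there in the same direction and 0 in the opposite one; these 74 are 18.1% of the 408. The sign was shared by 202 of the 240 (84.2%) and by 60.1% of all genes tested. The 2 comparisons share no library. Mup21 and Serpina1e had differences of -1.24 and -2.88 with unlimited food (adjusted p = 0.0022 and 1.0e-09, edgeR), and Ehhadh 0.55 (adjusted p = 1.6e-06). Whether the level difference itself differed between restricted and unlimited food was tested as an interaction: 5477 genes (45.9%) passed in all libraries, 7153 in letter A alone and 0 in letter B alone (1546 at an unadjusted p under 0.05). For rhythm the interaction passed in 0 genes by edgeR and 0 by DESeq2, with 579 genes (4.85%) at an unadjusted p under 0.05. No level or rhythm difference is therefore called particular to restriction.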

How the data were processed

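Messenger RNA of 48 calorie-restricted mouse livers was measured, and the other 72 liver libraries were used for the spread and for the TR comparison. The deposited count tables hold raw counts of reads per gene, and in a second set of tables the authors deposited RPKM, which divide those counts by length and depth. Tools named in the submitters' processing notes are FastQC, cutadapt, STAR and featureCounts; versions, strand setting and genome build are not given in the sources used here. All tests ran on the counts. RPKM served as a check: times gene length they matched the counts in 48 of 48 libraries (relative tolerance 0.001). Coordinates and GC content come from GENCODE vM21 (GRCm38), where 82.2% of gene identifiers had the same version. No 2 of the 48 libraries were near duplicates (highest correlation 0.988).

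Tests used edgeR 4.0.16 in R 4.3.3, with limma 3.58.1 for peaks and DESeq2 1.42.0 as an alternative. Genes passed filterByExpr by regimen and libraries were scaled by TMM. Each regimen had an intercept (level), a cosine and a sine of 24 h. Contrasts used the quasi-likelihood F test, and p-values were adjusted over all genes by Benjamini-Hochberg (threshold 0.05). Peaks and amplitudes came from least-squares fits to log2 CPM (prior count 2), with SE by the delta method. The GC correction used a lowess curve per library (span 0.3). CPM, SD and hourly means are descriptions. Tests were tried on simulated counts. Reads carry no molecular identifiers, so counting precision is that of reads and not of molecules.

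The comparison and the gene lists were chosen with earlier results of these data known. Genes were named by rule: the 12 largest level differences in each direction among genes that met the level rule with at least 5 CPM in the higher regimen, without predicted models and pseudogenes; the 10 smallest p of rhythm change; the 8 largest amplitudes among genes that kept their circadian hour; the 8 largest amplitude differences in each direction; all clock genes; up to 4 members of each list by level and by rhythm; and Cyp7a1, Pck1, Fasn and Fgf21. Some genes that the rule named are not reported here. The hourly maxima at CT4 and CT16 and the chaperones described by them were chosen after their values were seen. Alternatives were other scalings and tools, no filter, GC correction, a letter term, single letters, summed counts, replicate blocks, the 48 libraries alone and leaving out distant libraries. Libraries of the same time and letter in both regimens deviated together in part. The correlation was over 0.1 in 15 of 24 pairs, with a median of 0.18 and a range of -0.28 to 0.66. The main model did not pair them, and replicate blocks were run as an alternative.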

Additional observations from a re-analysis of the deposited data

Results flagged for a closer look

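For 9 genes named for their level the difference between day and night meals was not the same with restricted as with unlimited food, by the interaction test of edgeR in all liver libraries. They are 9 of the 24 named for level, and 45.9% of all genes tested passed the same test, so the count is no result about these genes. The value is the log2 difference under restriction minus that with unlimited food. It was larger under restriction for Acaa1b (0.997), Zfp385a (1.14), Mfsd2a (0.615), Prodh2 (1.09) and Gsn (1.16), all higher in CR-day. Chic1, lower in CR-day, had -0.815. It was smaller under restriction for Cyp2a22 (-1.26), Slc22a27 (-1.4) and Acnat2 (-0.918), which were higher with day meals in both. CR-day letter A, which stood apart along GC content, enters each value; no gene passed this test in letter B alone (1546 at an unadjusted p under 0.05).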

How the results depend on the processing

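Numbers of level calls and level interactions depended on the letter. Higher and lower counts were 4504 and 3593 in all libraries, 2501 and 2125 with the GC correction, 161 and 90 with it in letter B alone, and 2133 and 2124 with replicate blocks and the GC correction. With sums per regimen and letter, level calls higher and lower, those shared with letter B and interaction calls were all 0. Leaving out a letter gave 175 to 4589 higher, 101 to 4607 lower, 540 to 960 meal-time differences and 2869 to 3423 rhythm changes. It gave 1116 to 1500 rhythmic in CR-day and 2715 to 3258 in CR-night, 0 to 7153 level interactions and 1 to 1 rhythm interactions. Level calls of letter A alone shared with letter B numbered 197. Without letter A the shared calls are the 276 letter B calls themselves, so that value is no check. Interaction calls for level were 1324 with the GC correction, 3239 with it in letter A alone and 0 in letter B alone, and for rhythm 1 in either letter with it. Level calls shared with letter B fell to 134 with the GC correction in letter A alone. Meal-time differences were 2545 with the GC correction, 837 with it in letter A alone, 2899 with a letter term and 835 in the 48 CR libraries alone; rhythmic genes in CR-day were 3153, 3115 with a letter term and 1265 in the 48. The cause was not tested. DESeq2, RLE scaling, no filter (trended dispersion only), no mitochondrial transcripts and leaving out distant libraries kept each count within 1.5 times.

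The clock shift stayed between -10.03 and -9.10 h wherever it was computed. Replicate blocks of time and letter gave 4003 higher, 3603 lower and 3236 rhythm changes; meal time and single-regimen rhythm could not be estimated with blocks. Igfbp2 reversed in level with the GC correction (-0.17), with it in letter A alone (-0.66) and with blocks and GC (-0.23), and Igfals (-0.16) and Fasn (-0.13) with it in letter B alone; none had passed in letter B. Of 384 values of the 24 genes named for level under these alternatives, 0 reversed and 34 no longer passed, 10 of them outside the summed counts; of 1833 values of the 123 genes named for rhythm, 51 no longer passed and 12 newly passed. Without distant libraries and those over 4 h from their clock, 12 heat shock and 17 ER chaperone genes had both maxima; letters alone gave 9 to 14 and 14 to 15. The last alternatives, the GC correction in single letters and the clock limit were chosen after seeing the data. At 4 h between samples, the hour of a maximum is known to that step.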

Other observations

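Genes of ribosome biogenesis, which nutrient signals drive, changed rhythm in 14 of 23 and differed in meal time in 4 (all genes 34% and 13.3%). Their median amplitudes were 0.22 in CR-day and 0.41 in CR-night. Mybbp1a, a nucleolar protein, peaked 6.54 ± 0.517 h after the window opened in CR-day and 5.39 ± 0.626 h in CR-night (meal-time adjusted p = 0.49, edgeR), while Nolc1, a nucleolar phosphoprotein, peaked at 7.86 ± 0.769 and 3.69 ± 0.456 h (adjusted p = 6.5e-05). Wee1, the cell cycle kinase under the clock, kept its amplitude (1.64 ± 0.19 and 1.66 ± 0.19) and moved by -9.93 ± 0.631 h. Pdk4, a fasting kinase that spares glucose, had amplitudes of 0.69 ± 0.22 in CR-day and 1.95 ± 0.22 in CR-night (meal-time adjusted p = 0.0078).

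In the urea cycle list rhythm changed in 1 of 9 genes and differed in meal time in 4, against 34% and 13.3% of all genes. In the list of the integrated stress response rhythm changed in 9 of 14 genes, against 34% of all genes. Trib3, a pseudokinase of that response, peaked 19.8 ± 0.611 and 18.4 ± 0.573 h after the opening (meal-time adjusted p = 0.025, edgeR). Mitochondrial fatty acid oxidation genes had small waves, with median amplitudes of 0.13 in CR-day and 0.22 in CR-night. In meal time 1 of 22 differed, against 13.3% of all genes.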
